A study of Mus musculus with 24 samples.

Results

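The Hoxd cluster on mouse chromosome 2 and the adjoining gene Evx2 were followed through the DNA methylation counts of brown adipose tissue (BAT), the heat-producing fat of infant mice. The members were the fragments that the authors' annotation filed under Hoxd1, Hoxd3, Hoxd4, Hoxd8, Hoxd9, Hoxd10, Hoxd11, Hoxd12, Hoxd13 or Evx2, which were 244 of the 65535 fragments in the table, ordered by position. The 24 libraries were reduced representation bisulfite sequencing (RRBS) of DNA from female C57BL/6J pups at postnatal day (PND) 12, 12 per group. The dams of the DDT group received the insecticide by gavage, as its o,p' and p,p' forms together, and the dams of the VEH group received the olive oil vehicle, from gestation to PND 5 in both. Each library pooled BAT of 2 to 5 littermates, so a value describes a litter and the mixture of cells in its tissue. The comparison asks whether perinatal DDT left a different methylation level at these genes.

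Hox genes encode homeodomain transcription factors that give cells their position along the body axis, and they lie on the chromosome in the order of the body levels at which they act. Hoxd13 to Hoxd9 are the posterior members, known from limb, digit and urogenital development, whereas Hoxd4, Hoxd3 and Hoxd1 belong to the anterior end, with known roles in the hindbrain, the cervical vertebrae and sensory neurons. Evx2, a relative of the fly gene even-skipped that acts in the spinal cord and the digits, lies beyond Hoxd13. In tissues where Hox genes are silent their CpG-rich DNA is usually held by Polycomb proteins and stays free of methylation, while gene bodies and CpG-poor DNA are usually methylated.

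RRBS cuts DNA with MspI at CCGG into short fragments. At each CpG that is read, it counts reads that kept the cytosine (methylated) and reads that lost it (not methylated). Reads were 50 bp long, so some CpGs within longer fragments may not have been read. The level of a fragment was its methylated calls as a percent of all its calls, kept for libraries with 10 calls or more. Testing required such levels from 8 or more libraries in each group. Of the 244 fragments, 20 had no call in any library and 93 were tested, 38.1% against 30.9% of the whole table. The levels of 64 were present in all 24 libraries. Evx2 had 25 tested fragments, Hoxd1 13, Hoxd11 12, Hoxd3 and Hoxd8 11 each, Hoxd9 9, Hoxd10 and Hoxd13 4 each, and Hoxd12 and Hoxd4 2 each. From the first base of Evx2 to the last of Hoxd1 (chr2:74652989-74765142, GRCm38) lay 174 of the 244 fragments and 79 of the 93 tested. The other 14 were filed under Evx2 (13) or Hoxd13 (1), at 206768 to 478522 bp from the start of the gene they were named for.

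The 8 fragments on which the results turn are shown with their GRCm38 sequence on the forward strand, read from the RefSeq genome, with every CpG in capitals. They include the highest VEH levels of Hoxd8, Hoxd4 and Hoxd3, the 4 smallest p-values and, for contrast, 2 fragments at starts in CpG islands. The Hoxd13 fragment (chr2:74668304-74668376) lies in a coding exon 79 bp from the start, and that of Hoxd1 (chr2:74762920-74762975) ends 5 bp before the start. The Hoxd8 fragment (chr2:74704103-74704145) lies 470 bp upstream of the first annotated start, and that of Hoxd4 (chr2:74727553-74727619) in a coding exon. The 3 of Hoxd3 lie in introns (chr2:74734592-74734652, chr2:74740607-74740730 and chr2:74741056-74741123, in this order). The last (chr2:75138079-75138127) was filed under Evx2 but lies 478522 bp away, in an exon of the long non-coding RNA 2600014E21Rik.
Hoxd13 coding exon: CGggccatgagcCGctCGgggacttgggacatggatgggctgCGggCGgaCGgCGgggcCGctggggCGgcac
Hoxd1 start: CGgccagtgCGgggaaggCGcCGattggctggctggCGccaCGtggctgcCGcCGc
Hoxd8 upstream: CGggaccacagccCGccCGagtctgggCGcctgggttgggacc
Hoxd4 coding exon: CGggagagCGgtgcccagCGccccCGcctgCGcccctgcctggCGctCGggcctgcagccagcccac
Hoxd3 intron, most methylated: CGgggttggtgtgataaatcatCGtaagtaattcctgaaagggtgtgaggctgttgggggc
Hoxd3 intron, smallest p: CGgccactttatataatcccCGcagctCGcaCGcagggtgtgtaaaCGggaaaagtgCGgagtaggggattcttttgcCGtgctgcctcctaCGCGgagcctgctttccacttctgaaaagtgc
Hoxd3 intron, 1 CpG: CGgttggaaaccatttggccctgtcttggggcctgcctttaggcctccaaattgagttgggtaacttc
Evx2, distant: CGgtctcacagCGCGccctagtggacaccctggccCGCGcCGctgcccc
The Hoxd13 and Hoxd1 sequences hold 9 and 8 CpGs, and their VEH levels were 5.11% ± 0.98 and 2.74% ± 0.55 (SD, n = 12). The most methylated Hoxd3 sequence holds 2 CpGs and the one with the fewest CpGs holds 1, with VEH levels of 86.2% ± 7.27 (SD, n = 12) and 61.8% ± 10.7 (SD, n = 10). The Hoxd4 sequence holds 7 CpGs and stood at 48.5% ± 5.08 (SD, n = 12).

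The libraries held 8371958 to 13768991 CpG calls in VEH and 9895508 to 14124652 in DDT, and the median tested member fragment had 242 to 480 calls in the VEH libraries and 151 to 474 in the DDT libraries. DDT replicate 4 stood apart. It held 12788050 calls, within the range of the others, but they were unevenly placed. Its median tested fragment over the whole table had 35 calls, against 169 to 318 in the other 23 libraries. It had a level at 72 of the 93 member fragments. Where every library had a level, it had the most calls of all libraries at 11 fragments and the fewest at 22. Among the 64 member fragments with every level it was the single lowest library at 40 (62.5%; 57.6% over the 10399 such fragments of the table) and the highest at 9. DDT replicate 12 had the most calls of all libraries at 21 of the 64 and the fewest at 12. Its library number in the deposited counts does not follow the run of the other 23. Over the tested fragments of the table, the mean level was 16.9% in replicate 4 and 28.4% in replicate 12. It ran from 31.5% to 34.2% in the others. Differences are also given without both, a choice made after the data were seen. A read gives a call at each CpG it covers, so 10 calls can come from fewer than 10 reads. Reads carry no molecular identifiers, so depth covers counting error only. Levels do not measure expression, and the brown fat gene Ucp1 was not analysed here. Of a list of 9 marker genes on the chromosomes in the table, the adipocyte gene Fabp4 stood at 10.04% and 48.0% at its 2 tested fragments in VEH and Fabp5 had a median of 1.29% with 1 fragment at 64.3%. Of the muscle genes, Ttn and Neb had medians of 91.4% and 95.4%, Myog 64.2% and Des 10.7%, and of the blood cell genes Ptprc stood at 79.1% and 96.8% and Cd244 at 62.4%, and Cd48 had no tested fragment. At an unadjusted p under 0.05, there were 4 of the list's 29 tested fragments, 2 lower and 2 higher in DDT, where the share over the table was 4.18%. After adjustment there were 0, and the part of these genes' cells in the results below was not tested.

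In VEH the tested member fragments inside the cluster fell into 3 stretches by level. From Evx2 to Hoxd8, 42 of 53 tested fragments inside the cluster had a mean level under 10%, with a median of 4.35%. In Hoxd4 and Hoxd3, 0 of 13 fragments were under 10%, and their levels ran from 16.5% to 86.2% with a median of 30.3%. Those nearest to their gene's start lay 5501 bp (Hoxd4) and 20765 bp (Hoxd3) from it. At the Hoxd3 start, 2 fragments filed under Mir10b stood at 1.11% and 2.16%, so the span of these genes was not methylated throughout. Toward Hoxd1 the levels were low again, with 9 of 13 fragments under 10% and a median of 4.10%. Over all 93 fragments the median was 6.06%, and 57 (61.3%) were under 10%, against a median of 11.02% and a share of 48.1% over the whole table and a median of 10.2% over 526 fragments of 33 other homeobox genes.

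**Figure D1:**
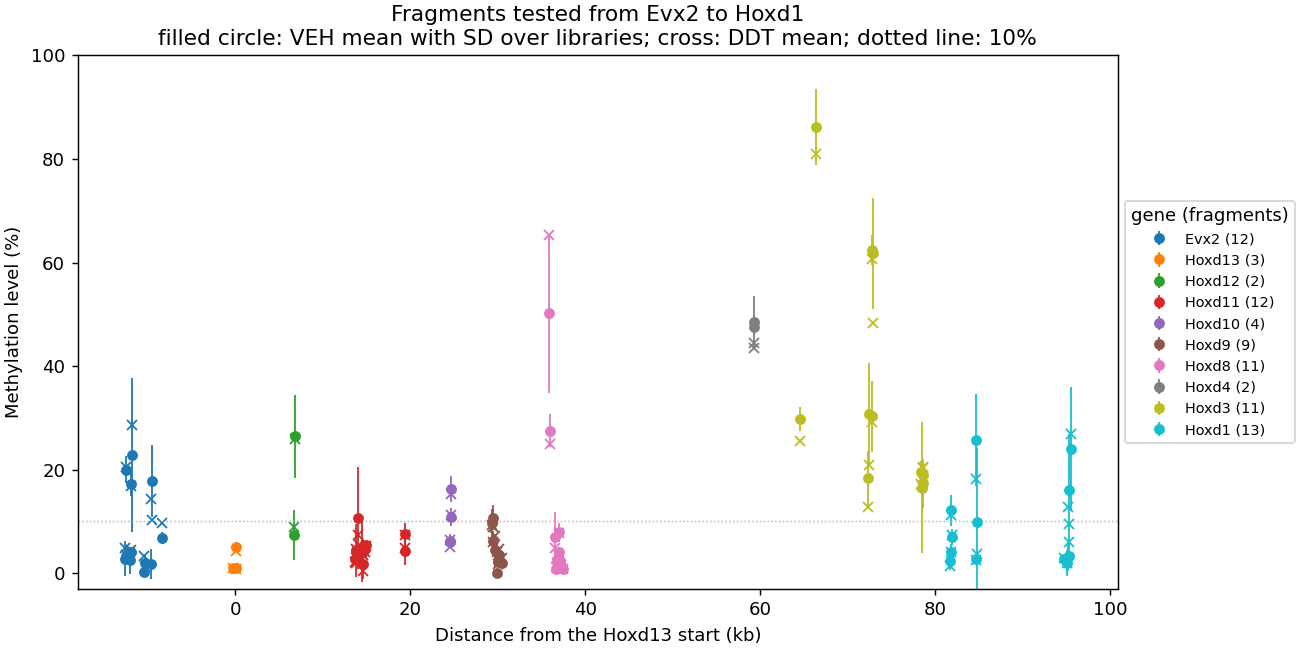
Methylation level (%) of the 79 tested fragments inside the cluster against distance from the Hoxd13 start (kb), with VEH means and SD over libraries as filled circles and DDT means as crosses, coloured by gene. From Evx2 to Hoxd8, 42 of 53 fragments lie under 10%, with 26.4% at Hoxd12, 22.8% at Evx2, and 27.5% and 50.2% upstream of Hoxd8 among the others, the Hoxd4 and Hoxd3 fragments rise to 86.2%, and most Hoxd1 fragments are again under 10%.

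Averaged over the fragments with a level in every library, the genes ran in VEH from Hoxd13 at 2.42% ± 0.46 (3 fragments) and Hoxd11 at 3.85% ± 0.57 (8) through Hoxd9 at 5.18% ± 0.79 (8), Hoxd1 at 5.83% ± 1.62 (8) and Evx2 inside the cluster at 7.23% ± 0.88 (5) to Hoxd10 at 9.55% ± 1.12 (3) and Hoxd8 at 9.96% ± 1.63 (10). Far above them stood Hoxd3 at 34.8% ± 2.57 (9) and Hoxd4 at 48.0% ± 2.83 (2; all SD over 12 libraries). The ranges of the 12 VEH libraries overlapped between all neighbours in this order except Hoxd8 and Hoxd3 (5.75% to 11.9% against 29.8% to 38.6%) and Hoxd3 and Hoxd4 (43.5% to 51.8%). Hoxd12 had no fragment with all levels. With calls summed over fragments, which weights deep fragments more, Hoxd8 came to 2.95%, Hoxd1 to 3.47% and Hoxd9 to 3.35%, while Hoxd3 came to 28.9% and Hoxd4 to 47.8%. In each of the 24 libraries, DDT replicate 4 included, the mean of Hoxd4 and Hoxd3 was above that of the 45 other cluster fragments (9.33% to 40.3% against 4.16% to 9.06%). The 2 genes were grouped by their level in these same libraries, so this describes the pattern and does not test it.

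Evx2 had 12 tested fragments inside the cluster, 7 of them over coding exons, with a median VEH level of 3.69%. The lowest, in a coding exon (chr2:74657813-74657915), was at 0% in 7 of the 8 VEH libraries with a level and had a mean of 0.27%. The fragment nearest to the start, 255 bp from it, stood at 6.84% ± 1.2 in VEH and at 9.63% ± 7.0 in DDT (SD, n = 12 each). There the VEH libraries ran from 4.8% to 8.77% with a median of 6.65%, and the DDT libraries from 6.15% to 31.7% with a median of 7.67%. The highest DDT value was that of replicate 4, and the groups overlapped (p = 0.187). The difference was 2.79 percentage points, and 0.83 without replicates 4 and 12.

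Levels were low at Hoxd13 and mixed at Hoxd12. Hoxd13, which shapes the digits, had 3 tested fragments within its island, at 1.09%, 5.11% and 1.07% in VEH. Its fragment with the smallest p (the sequence shown) ran from 3.66% to 6.65% in VEH with a median of 5.15%, and from 0.06% in DDT replicate 4 to 7.92% in DDT with a median of 3.78%, so that the groups overlapped (p = 0.277). The difference was -0.78 percentage points, and -0.30 without replicates 4 and 12. Hoxd12 had 2 fragments at its start, side by side. The first, over the start, stood at 7.33% ± 4.84 and the second, in the coding exon, at 26.4% ± 7.95 (SD, n = 12 VEH), at medians of 42 and 38.5 calls. The groups overlapped at both (p = 0.537 and p = 0.865).

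Hoxd11, which works with Hoxa11 in the forearm and the kidney, had 12 tested fragments between 1.74% and 10.7% in VEH. Of these, 2 lie 5293 and 5347 bp from the Hoxd11 start, in an intron of Hoxd10 by RefSeq. The lowest level and also the smallest p of Hoxd11 lay in a coding exon (chr2:74682856-74682943). There the VEH and DDT medians were both 0% and the highest libraries were 8.04% in VEH and 1.47% in DDT (p = 0.119). Hoxd10, active in hindlimb motor neurons, had 4 fragments in an intron, 876 to 1026 bp from the start, from 6.06% to 16.3% in VEH. At the one with the smallest p, the VEH libraries ran from 3.95% to 7.29% with a median of 6.38% and the DDT libraries from 0% in replicate 4 to 8.04% with a median of 5.12%, and the groups overlapped (p = 0.203). The difference was -0.94 percentage points, and -0.35 without replicates 4 and 12. Hoxd9 had 9 fragments from 0% to 10.7% in VEH. The highest covered its start (chr2:74697675-74697788), with VEH libraries from 6.25% to 14.6% and a median of 11%, and DDT libraries from 0% in replicate 4 to 16.1% and a median of 8.54% (p = 0.208). The difference was -1.87 percentage points, and -1.25 without the 2 libraries.

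Hoxd8 split in a short distance. Its 9 fragments downstream of the first start ran from 0.72% to 7.89% in VEH, among them 1.33% ± 0.44 over the second start, while the 2 fragments upstream stood at 50.2% ± 15.4 and 27.5% ± 3.18 (SD, n = 12). The upstream pair lies 470 and 430 bp from the first start and holds 4 and 2 CpGs, in this order. The lowest Hoxd8 fragment, in the coding exon (chr2:74705730-74705780, 11 CpGs), ran from 0.31% to 2.48% in VEH and from 0.05% to 2.69% in DDT.

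Hoxd4, a gene of the hindbrain and neck that responds to retinoic acid, had 2 tested fragments, both in a coding exon and 5501 and 5575 bp from the annotated start. They stood at 47.5% ± 1.25 and 48.5% ± 5.08 in VEH and at 44.5% ± 11.1 and 43.4% ± 12.2 in DDT (SD, n = 12 each). At the first the VEH libraries ran from 44.8% to 49.3%, with a median of 47.6%, at a median of 2440.5 calls. The DDT libraries ran from 10.9% in replicate 4, on 46 calls, to 54.1%, with a median of 47.3%, so the VEH libraries lay within the DDT range. Without replicates 4 and 12 the DDT minus VEH difference was 0.57 percentage points (p = 0.571), against -3.06 with all libraries (p = 0.354). At the second it was -2.14 without them, against -5.10 (p = 0.194).

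Hoxd3, which patterns the atlas and axis, had 11 tested fragments, 7 in introns and 4 in a coding exon. The intron fragments varied from 18.3% to 86.2% in VEH, at times between direct neighbours, since 3 that abut each other at chr2:74740967-74741123 stood at 62.4%, 30.3% and 61.8%. The exon fragments were alike, from 16.5% to 19.5%. At the highest intron fragment (chr2:74734592-74734652) the VEH libraries ran from 74.0% to 95.7% with a median of 87.3%. The DDT libraries ran from 11.6% in replicate 4 to 95.1% with a median of 89.5%, so that 1 library set the lower DDT mean of 80.9% ± 22.6 (SD, n = 12). The difference of -5.29 percentage points was 1.91 without replicates 4 and 12. No fragment of Hoxd3 or Hoxd4 lay within 250 bp before to 50 bp after a start. The untranslated exon at the Hoxd3 start held 2 tested fragments filed under the microRNA gene Mir10b, and these stood at 1.11% ± 0.97 and 2.16% ± 0.51 in VEH (SD, n = 12). Another fragment filed under Mir10b, in an untranslated exon of Hoxd4 (chr2:74725515-74725573), stood at 85.2% ± 3.53.

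Hoxd1, the most anterior member, had 13 tested fragments in 2 groups. The first 7 were 9911 to 12982 bp upstream, inside the antisense long non-coding RNA gene Haglr, at 2.41% to 25.7% in VEH. The other 6 ran from 5 bp before the start into a coding exon, at 1.96% to 23.97%, with the highest furthest from the start and on 14 calls in the median library. The fragment 5 bp upstream of the start ran from 1.57% to 3.48% in VEH and from 1.31% to 7.69% in DDT, the latter in replicate 4 on 13 calls, with a difference of 0.20 percentage points and of -0.23 without replicates 4 and 12. The smallest p of the gene was 0.067, at an exon of Haglr (chr2:74749903-74749998), where 6 DDT libraries lay below the VEH median of 1.55% and 6 above.

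Levels went with CpG density. Across the 93 member fragments the Spearman correlation of the mean VEH level with the observed over expected number of CpGs was -0.54, and across the 20225 tested fragments it was -0.55. Over the 11641 tested fragments of the table outside the CpG islands listed by the authors, it was weaker, at -0.26. Fragments are not independent, since neighbours share reads, DNA molecules and libraries, so this is a description. Of the 71 member fragments with a ratio of 0.6 or more, 48 were under 10%, against a share of 65.4% over the table. Of the 22 with a lower ratio, 9 (40.9%) were under 10%, against 16.1% over the table.

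**Figure D2:**
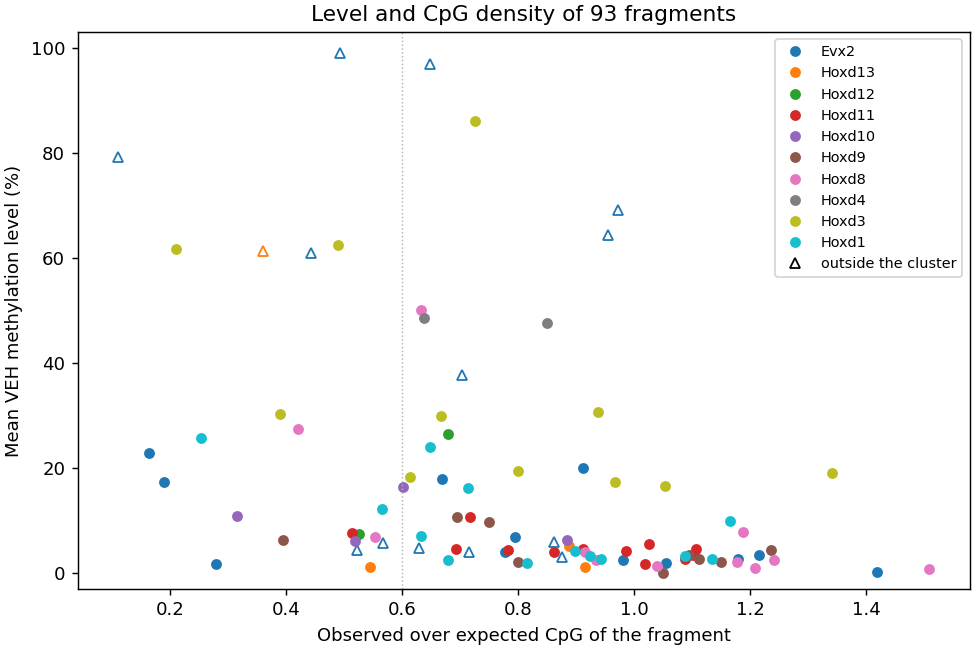
Mean VEH level (%) of the 93 tested fragments against their observed over expected CpG, coloured by gene, with fragments outside the cluster as open triangles and a dotted line at 0.6. Some CpG-poor fragments, of Hoxd13 and Evx2, stand as low as 1.09% and 1.78%, whereas Hoxd3 and Hoxd4 fragments stand at 16.5% or more at any density.

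The annotation of islands bears on how these fragments would be classed. The authors' table marked 9 of the 93 tested fragments as island core. By the island ranges that the same table lists, 32 of the 93 overlapped an island, and 23 of the 32 were not marked as core (10 of Hoxd11, 7 of Hoxd9 and 6 of Evx2), against 1494 of 8584 in the whole table. For gene parts, 7 Hoxd11 fragments within chr2:74682280-74683199, 2 of Hoxd8 from its second start on and the 4 Hoxd3 exon fragments were marked intronic by the authors, while RefSeq and GENCODE M21 place exons there.

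The 14 tested fragments outside the cluster were set apart by position and not by level. The 6 filed under Evx2 at chr2:75137424-75138127 lay in RefSeq exons of the long non-coding RNA genes Gm13652 and 2600014E21Rik, with VEH levels of 3.02% to 5.81%. The 7 others of Evx2 ranged from 37.7% to 99.1%, and the 1 of Hoxd13 stood at 61.4% ± 3.96 (SD, n = 12). The mitochondrial import gene Mtx2 starts between the cluster and these 13 Evx2 fragments.

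No member fragment passed the test of DDT against VEH after adjustment. With the ANOVA F test and p-values adjusted over all 20225 tested fragments, 0 of 93 members passed 0.05, as did 0% of the whole table. The quasi-binomial regression and limma also called 0. The smallest adjusted p of the members was 0.869. Without adjustment, 4 of 93 (4.30%) had a p under 0.05, against 845 of 20225 (4.18%), so the members' share was close to the background. Quasi-binomial regression gave 10 of 93 against 7.72% of the table, and limma 4 of 93 against 3.51%. Of the 4, 3 were lower in DDT (2.93% of the table was called in that direction) and 1 was higher (1.25% of the table). Among the other homeobox genes it was 19 of 526 (3.61%), 15 lower and 4 higher. A missed threshold does not show that levels were equal, and the differences of all 93 fragments ran from -13.4 to 15.1 percentage points.

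**Figure D3:**
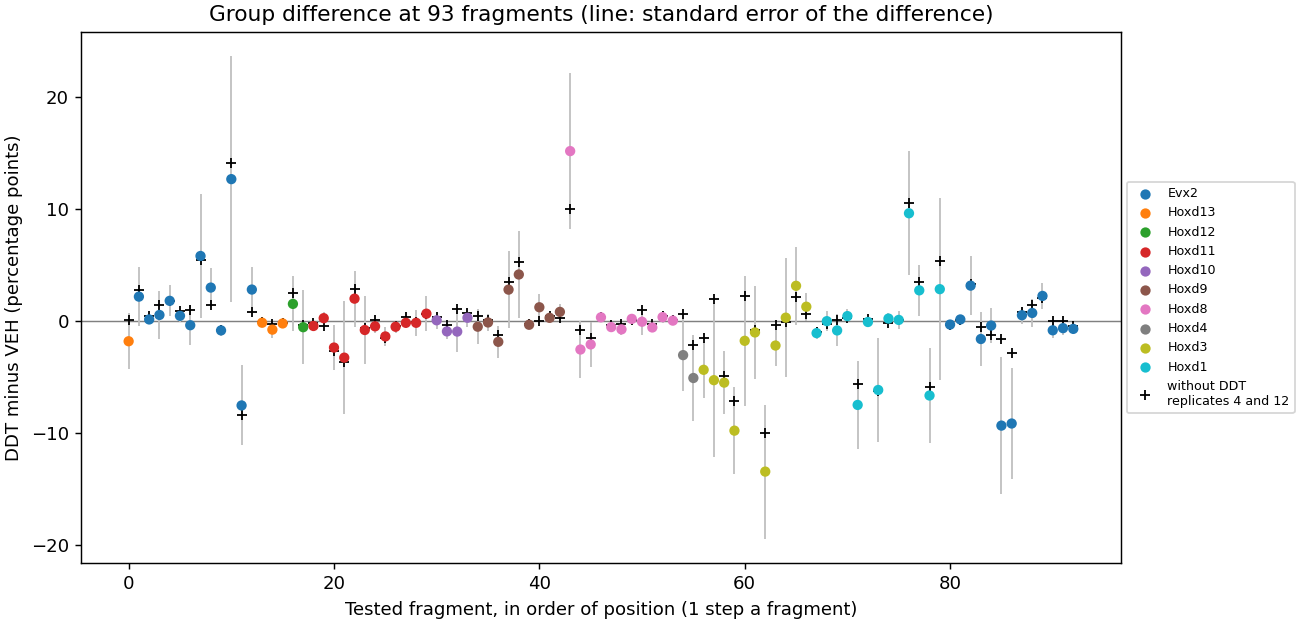
DDT minus VEH (percentage points) at the 93 tested fragments in order of position, coloured by gene, with the standard error of the difference as grey lines and the difference without DDT replicates 4 and 12 as black plus signs. Most fragments sit within a few points of 0, the 7 Hoxd3 intron fragments are all below 0 with all libraries, and 2 of them are above 0 without the 2 libraries.

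The 4 fragments were as follows. At the distant Evx2 fragment the VEH libraries ran from 2.38% to 3.83% with a median of 2.91%, and the DDT libraries from 0.07% in replicate 4 to 3.37% with a median of 2.36%. The means were 3.02% ± 0.41 and 2.31% ± 0.84 (SD, n = 12 each; p = 0.0141, adjusted p = 0.869 by the ANOVA), with 10 of 12 DDT libraries below the VEH median, and the groups overlapped. The difference was -0.72 percentage points with all libraries and -0.48 without replicates 4 and 12 (p = 0.0195), and by limma with all libraries the p was 0.087.

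At the Hoxd3 intron fragment with the smallest p (chr2:74740607-74740730) the VEH libraries ran from 14.6% to 50% with a median of 30.5%, and the DDT libraries from 0% in replicate 4 to 33.3% with a median of 22.8%. The means were 30.7% ± 9.83 and 20.9% ± 9.27 (SD, n = 12 each; p = 0.0198, adjusted p = 0.869 by the ANOVA), at a median of 34.5 calls, with 10 of 12 DDT libraries below the VEH median. Without replicates 4 and 12 the difference was -7.13 percentage points and the p 0.066. At the Hoxd3 fragment with 1 CpG (chr2:74741056-74741123) the VEH libraries ran from 37.5% to 75.0% with a median of 63.6%, and the DDT libraries from 17.4% in replicate 12 to 73.3% with a median of 51.0%. The means were 61.8% ± 10.7 and 48.3% ± 15.6 (SD, n = 10 each; p = 0.0372, adjusted p = 0.869 by the ANOVA) at a median of 18.5 calls, and the p was 0.070 without replicate 12. In both, the groups overlapped.

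The Hoxd8 upstream fragment was the 1 that was higher in DDT. Its VEH libraries ran from 14.3% to 72.0% with a median of 52.4%, and its DDT libraries from 33.3% to 91.8% with a median of 64.3%. The means were 50.2% ± 15.4 and 65.3% ± 18.4 (SD, n = 12 each; p = 0.0398, adjusted p = 0.869 by the ANOVA), with 10 of 12 DDT libraries above the VEH median. The 2 highest values, 91.8% and 90.6%, were those of DDT replicates 4 and 12, and replicate 4 had 998 calls there, where the median of the other libraries was 24. Without both the difference fell from 15.1 to 9.97 percentage points (p = 0.146), and without VEH replicate 9, the lowest, the p was 0.077. Its direct neighbour on the chromosome, 1 base further on, had means of 27.5% ± 3.18 in VEH and 25.0% ± 8.21 in DDT (p = 0.325), and there DDT replicate 4 stood at 0.19%.

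**Figure D4:**
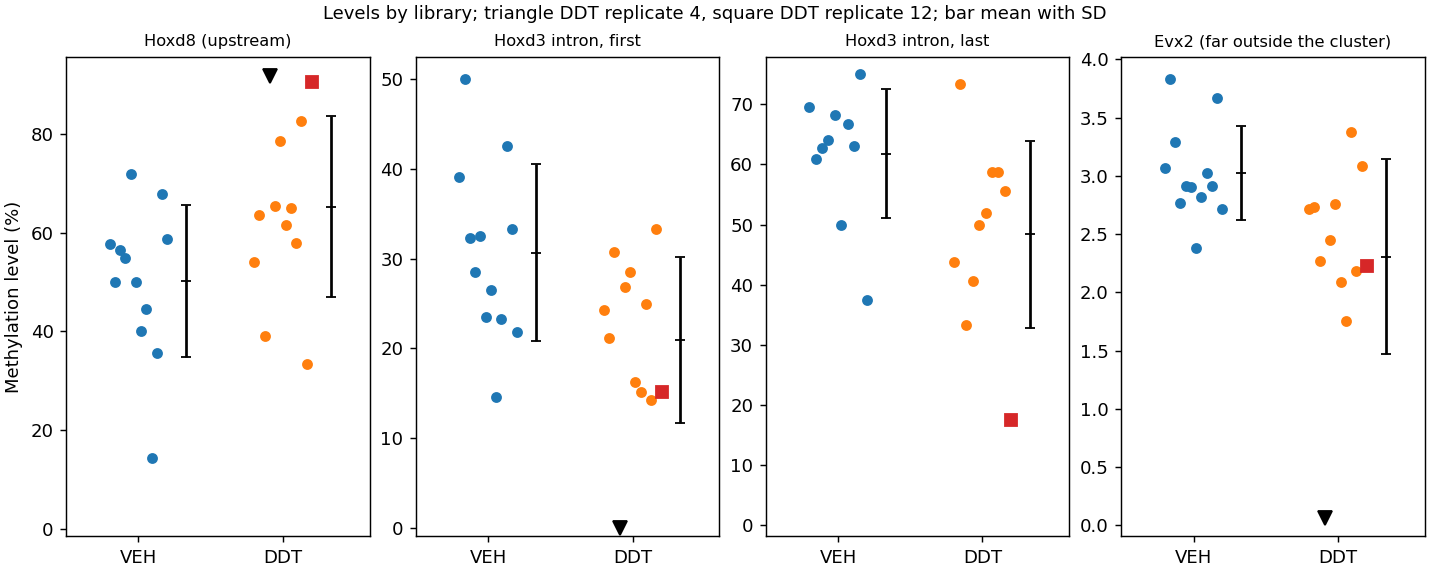
Methylation level (%) in each VEH and DDT library at the 4 fragments with an unadjusted p under 0.05, each on its own scale, with DDT replicate 4 as a triangle, DDT replicate 12 as a square, and the mean with SD beside the points. The groups overlap in all 4, and replicate 4 is the lowest point at the first Hoxd3 fragment and the distant Evx2 fragment and the highest at Hoxd8.

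The 7 intron fragments filed under Hoxd3 all had a lower mean in DDT, with a median difference of -5.29 percentage points, while 56.9% of all tested fragments of the table were lower. Leaving out DDT replicates 4 and 12, it was 5 of 7 with a median of -1.50 percentage points, and 49.3% of the table. These fragments come from the same 24 libraries and lie in 1 gene, so they do not count as separate observations. Over the 6 of them with all levels, the library mean was 43.0% ± 3.51 in VEH and 38.3% ± 11.5 in DDT, and the DDT mean without the 2 libraries was 41.2% ± 2.54. DDT replicate 4 stood at 2.65%, below all other libraries, while at the Hoxd3 exon its mean of 22.7% was above the VEH range of 16.6% to 21.4%. By RefSeq, 3 fragments filed under other genes also lie within a Hoxd3 intron. The 2 of Hoxd4 were lower in DDT, and that of Mir10b (chr2:74725515-74725573) was 0.39 percentage points higher.

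Over the 64 fragments with all levels, the mean (Hoxd12 had none of them) was 14.6% ± 0.83 in VEH (12.9% to 15.9%, median 14.5%) and 14.1% ± 2.52 in DDT (6.84% to 16.9%, median 14.5%; SD, n = 12 each). The lowest DDT library was replicate 4, the next lowest stood at 13.5%, and 9 of 12 DDT libraries lay within the VEH range. Leaving out replicates 4 and 12 turned the DDT minus VEH difference from -0.49 to 0.26 percentage points. By gene, DDT replicate 4 was the lowest of the 24 libraries in Hoxd13 (0.08%), Hoxd11 (1.35%), Hoxd10 (0.14%), Hoxd9 (3.62%), Hoxd4 (9.38%), Hoxd3 (9.32%) and Hoxd1 (2.18%). It was not the lowest in Hoxd8 (9.66%) or in Evx2 (13.9%, against 13.8% in DDT replicate 12). For Evx2 inside the cluster it stood at 6.54%, against 5.95% in VEH replicate 2.

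**Figure D5:**
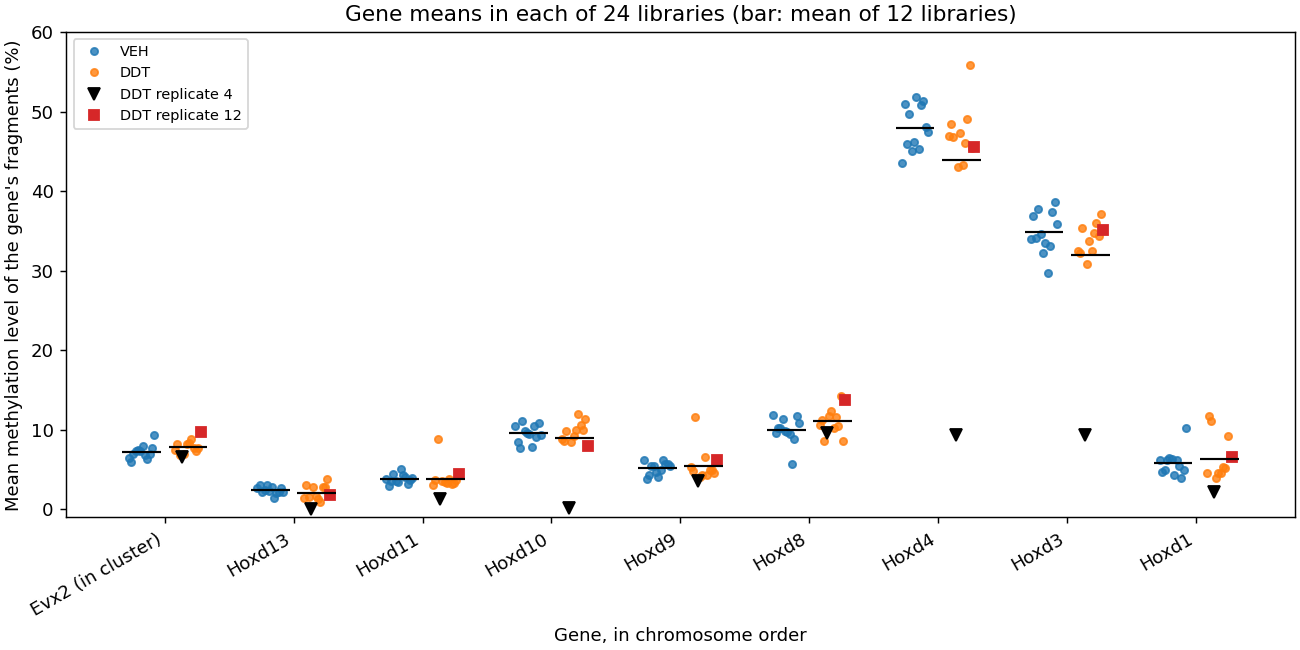
Mean level (%) of each gene's fragments in each of the 24 libraries, over fragments with a level in all of them, with VEH in blue, DDT in orange, DDT replicate 4 as a triangle and DDT replicate 12 as a square. Bars mark the mean of 12 libraries. Hoxd4 and Hoxd3 stand apart from the other 7 genes in every library except DDT replicate 4, where they are near 9%.

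The spread between libraries was wider in DDT, and the part of litters and of library coverage in it was not tested. The SD over libraries was larger in DDT than in VEH at 80 of 93 member fragments (86.0%), with medians of 4.17 and 2.21 percentage points, and at 79.2% of the tested fragments of the table. Without replicates 4 and 12 it was 62 of 93 (66.7%), against 59.98% of the table, with a median SD of 2.52 in DDT.

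Among the 33 other homeobox genes, Gbx2 and Lmx1b were among those whose library means were closest to the mean over the 64 fragments, with mean absolute differences over 24 libraries of 1.89 and 2.26 percentage points. In VEH, Gbx2 stood at 14.1% ± 0.98 over 5 fragments and Lmx1b at 16.5% ± 0.50 over 25 (SD, n = 12). Around the cluster, the 2 tested fragments filed under Lnp, on the Evx2 side, stood at 0.80% ± 0.76 and 3.35% ± 1.24 in VEH (SD, n = 12), and a fragment between Hoxd1 and Mtx2 (chr2:74790164-74790342) at 60.8% ± 4.95.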

How the data were processed

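The authors trimmed 50 bp single-end RRBS reads with Scythe and Sickle, aligned them to GRCm38 with Bismark 0.15.0 on Bowtie 2 and deposited raw counts of methylated and not methylated CpG calls per MspI fragment for 12 DDT and 12 VEH litter pools, with a gene name, region class and island class for each fragment. The release behind these names is not given in the sources used here. The table ends partway through chromosome 3, at 65536 lines (1 of them the header). Other chromosomes were not analysed here. All fragments (100%) began at an MspI site of the RefSeq GRCm38 sequence, and exons were taken from RefSeq and GENCODE M21. Starts are those of curated RefSeq transcripts. A read of 50 bp does not span a longer fragment.

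Levels were methylated calls over all calls, for libraries with at least 10 calls, and 20225 fragments had such levels in 8 or more libraries of each group. Depth ranged from 8371958 to 14124652 calls per library. Groups were compared with the one-way ANOVA F test and Benjamini-Hochberg adjustment over all tested fragments, with a threshold of 0.05. The ANOVA follows the paper's statistics section, which names no more of the model. How levels entered the test, and the filters, were chosen here. The paper, unlike the comparison here, reported differentially methylated genes in infants exposed to DDT after its own correction at 0.05. Why the outcomes differ was not tested. Alternatives were quasi-binomial regression, limma on log2((methylated + 1) / (not methylated + 1)), at least 5 or 20 calls, levels in all 24 libraries, a depth covariate, a replicate block, each library left out, and all fragments from Evx2 to Hoxd1. Leaving out DDT replicates 4 and 12 was added after the data were seen. Of each gene, the text names the tested fragments with an unadjusted p under 0.05, the smallest p, the highest and lowest VEH level and the nearest to the start. Fragments under Mir10b, those beside a named fragment and the distant ones were named after their values were seen. Groups within or across genes, such as the Hoxd3 intron or Hoxd4 with Hoxd3, were not set in advance. Of the homeobox list, the text names those closest in library means to the members, and 1 such gene is not reported here. The members and gene lists were chosen with earlier results of these data known. Pools are separate litters by the study's methods. Python 3.11.15 (NumPy 2.4.6, pandas 2.3.3, SciPy 1.17.1, matplotlib 3.10.9) and R 4.3.3 (limma 3.58.1) were used.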

Additional observations from a re-analysis of the deposited data

Results flagged for a closer look

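For the fragments named here in which a group had 4 to 10 libraries with a level, the highest and lowest libraries were compared with the rest by Dixon's gap. This was 10 groups of libraries, and 5 had a library far from the others, where chance gives about 1 in 20 for values without a floor. Levels stop at 0, which 7 of 8 VEH libraries at the Evx2 fragment and 6 of 8 DDT libraries at the Hoxd9 fragment named here had reached, so that a highest library above 0 meets the criterion more easily. All 5 were the highest library of a group, at fragments with a median of 13.5 to 30 calls. At the Evx2 coding fragment chr2:74657813-74657915, the highest DDT library was at 14.4% (replicate 12) and the highest VEH library at 2.17% (replicate 7), with the median DDT library at 1.83% and the median VEH library at 0%. At the Hoxd11 start (chr2:74682280-74682371) the highest DDT library was at 33.3%. At the Hoxd9 coding fragment chr2:74698167-74698284 it was at 31.4%, where all VEH libraries were at 0%. At the Hoxd3 exon fragment chr2:74746650-74746768 the highest VEH library was at 45.2%, against a VEH mean of 16.5%. No explanation of these values was tested.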

How the results depend on the processing

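The count of members with an adjusted p under 0.05 was 0 under all alternatives run, while the count at an unadjusted p under 0.05, 4 of 93 in the ANOVA, was 10 with quasi-binomial regression (1562 of 20225, 7.72%, in the table), 4 with limma (709, 3.51%) and 3 without DDT replicates 4 and 12 (903, 4.46%). Leaving out each library in turn gave 2 to 8 (748 to 1083 in the table), with 2 without VEH replicate 7 (808), 8 without DDT replicate 11 (1083, 5.35%), and 7 without each of DDT replicate 1 (870), VEH replicate 3 (812) and VEH replicate 4 (808). The mean VEH level of the 10 genes, 14.6%, was 9.86% with calls summed over fragments, 13.5% with at least 20 calls, 17.2% over all tested fragments and 13.4% over all fragments from Evx2 to Hoxd1. It ran from 14.5% to 14.8% with each library left out, and the DDT minus VEH difference from -0.74 to 0.18 percentage points, positive without DDT replicate 4. The sign of the difference at the start of Hoxd12, 1.51 percentage points in the main test, turned to -0.96 with quasi-binomial regression and to -0.17 with limma, and it passed no threshold in any of the 3. The cause of these changes was not tested. With the replicate number as a block the adjusted count was 0 and the unadjusted count 4 (834 in the table, 4.12%), and the Hoxd8 fragment had a p of 0.065. The labels do not say that a number marks a shared litter or day, the correlations of same-numbered libraries' deviations ran from -0.18 to 0.20, 3 of 12 pairs exceeded 0.1, and 0 DDT libraries correlated best with their own number, so pairing was not used. Fragments at 10 to 30 calls, such as Hoxd8 upstream and Hoxd3 with 1 CpG, are among those with the fewest calls behind their levels. At like calls, a fragment with more CpGs can rest on fewer reads. The Hoxd3 exon fragment chr2:74746650-74746768, with 14 CpGs, had a median of 15 calls.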

Other observations

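Atp5g3, a gene of an ATP synthase subunit near the cluster, had 13 tested fragments from 2.21% to 97.4% in VEH, and 1 had an unadjusted p under 0.05 (p = 0.021), lower in DDT. Mtx2 had a fragment over its first exon at 2.90% ± 3.51 in VEH (SD, n = 10) and 13.3% ± 21.03 in DDT (SD, n = 12), with an unadjusted p of 0.14 and an adjusted p of 0.869 in the ANOVA.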
